A study of Rattus norvegicus with 21 samples.

Results

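The lysosomal proteases described here are cathepsin H (Ctsh), the cathepsins L, B, D, S, C, K and Z (Ctsl, Ctsb, Ctsd, Ctss, Ctsc, Ctsk and Ctsz) and legumain (Lgmn). They are 9 of the 13438 genes that had a probe set with a single gene symbol on the array, and they were given by name. Of the probe sets of a gene, the one brightest on average over the 21 arrays was used. A single probe set was present for 7 members, and 2 were present for Ctsc and for Lgmn.

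The cells were INS-1, a rat insulinoma line that secretes insulin and stands in for pancreatic beta cells. The INS1 group was untransfected and untreated (0 h), and the line pcDNA, which carries the empty vector, was studied at 0, 6 and 16 h of cytokine exposure. The line pCTSH#1, written pCTSH1 in the sample titles, is a single clone that stably overexpresses CTSH, and it was studied at the same 3 times. The cytokines were 150 pg/ml mouse IL-1β with 5 ng/ml rat IFNγ, given after 3 days of culture. Each of the 7 groups had 3 arrays. The replicates were numbered without a statement that they were separate cultures, so a p-value here speaks only of the scatter among the arrays, which may be technical. No cells were kept for 6 or 16 h without cytokines among these groups, so cytokine exposure and time in culture cannot be told apart. A clone named pCTSH#2 in the protocol was not analysed here. In differences between pCTSH#1 and the other lines, CTSH overexpression and other traits of this single clone therefore cannot be told apart.

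Lysosomal proteases are made as inactive precursors in the endoplasmic reticulum, tagged with mannose 6-phosphate, sorted to the lysosome and activated there by cleavage at acid pH. Cathepsins B, C, H, K, L, S and Z are cysteine proteases of the papain family, cathepsin D is an aspartic protease, and legumain cuts after asparagine and helps to process several cathepsins. In antigen-presenting cells cathepsins S and L degrade the invariant chain of MHC class II molecules. In the human genome CTSH lies in a region associated with type 1 diabetes.

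The stretches of DNA before 4 of the genes are shown because these genes behaved differently under cytokines: Ctss and Lgmn rose, Ctsl fell, and Ctsd did not pass the test. They are RefSeq promoter windows of build GRCr8, from 250 bases before to 50 bases after the start of the gene, read 5′ to 3′ along the gene. Windows were found for 8 of the 9 members, all except Ctsb. Capitals mark an exact match, on either strand, to CACGTG (the core bound by the MiT factors TFEB, TFE3 and MITF) or to the core of the interferon-stimulated response element (GAAA, then 2 free bases, then GAAA). No marked match overlapped another.
Ctss (chr2:185775146-185775445, plus strand): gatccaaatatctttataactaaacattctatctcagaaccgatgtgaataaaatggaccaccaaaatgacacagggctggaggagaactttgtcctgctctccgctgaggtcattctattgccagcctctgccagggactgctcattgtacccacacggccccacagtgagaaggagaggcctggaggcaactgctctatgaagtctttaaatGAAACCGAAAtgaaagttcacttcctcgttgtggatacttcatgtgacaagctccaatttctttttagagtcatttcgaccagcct
Ctsd (chr1:206968772-206969071, minus strand): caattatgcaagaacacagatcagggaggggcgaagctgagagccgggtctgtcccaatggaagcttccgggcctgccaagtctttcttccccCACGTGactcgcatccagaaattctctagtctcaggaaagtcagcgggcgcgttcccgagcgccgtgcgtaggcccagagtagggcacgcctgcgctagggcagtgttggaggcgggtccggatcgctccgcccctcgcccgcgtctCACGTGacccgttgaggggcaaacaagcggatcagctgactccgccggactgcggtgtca
Lgmn (chr6:127347279-127347578, minus strand): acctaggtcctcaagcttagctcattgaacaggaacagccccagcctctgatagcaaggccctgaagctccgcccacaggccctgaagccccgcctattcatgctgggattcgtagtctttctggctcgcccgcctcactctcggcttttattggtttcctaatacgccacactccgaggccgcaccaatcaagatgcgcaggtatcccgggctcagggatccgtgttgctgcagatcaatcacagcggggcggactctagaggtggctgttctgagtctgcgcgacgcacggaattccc
Ctsl (chr17:769854-770153, plus strand): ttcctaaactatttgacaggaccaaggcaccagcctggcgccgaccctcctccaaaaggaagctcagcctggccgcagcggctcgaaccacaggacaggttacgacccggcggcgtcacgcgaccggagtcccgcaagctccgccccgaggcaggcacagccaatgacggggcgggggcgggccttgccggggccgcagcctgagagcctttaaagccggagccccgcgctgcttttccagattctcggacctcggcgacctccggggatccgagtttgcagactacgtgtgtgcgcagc

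The interferon-stimulated response core was found in Ctss alone among the 8 windows. Its letters, GAAACCGAAA, lay on the strand of the gene, from 36 to 27 bases before the start. Of all 33469 promoter windows, 3.92% held this core. The letters CACGTG were found in Ctsd alone among the 8 windows, at 157 to 152 and again at 10 to 5 bases before the start, and 6.42% of all windows held them. A looser pattern resembling the NF-κB site (GGG, then 5 free bases, then CC) was found in 6 of the 8 windows and in 47.3% of all windows, and is not capitalised here. In Ctsh, Ctsl, Ctsd and Ctsz some matches to it overlapped each other. These are matches of letters, not measured binding sites, and a link between them and the changes under cytokines was not tested.

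The deposited values were log2 probe set intensities, and array medians lay between 4.88 and 5.08. The brightest nonspecific control probe set of an array was taken as its background; it ranged from 3.88 to 4.18, and 61.4% to 71.0% of probe sets lay above it. A member was taken as measured in a group when all 3 arrays lay above their own background. Every array had a correlation of at least 0.993 with some other array, so none stood apart by this measure. All 10 beta cell markers with a probe set lay above background on every array, among them Ins1, Ins2, Iapp and Pdx1.

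By this criterion 6 of the 9 members were measured in at least 1 group. Ctsl, Ctsb, Ctsd and Lgmn were measured in all 7 groups, Ctsc in 6 and Ctss in 4. Ctsh, Ctsk and Ctsz were measured in none, and lay above background on 7, 4 and 2 of the 21 arrays. An intensity depends on the probes, so levels were compared only within a gene. In bulk RNA a lower level from fewer expressing cells and one from less RNA per cell cannot be told apart.

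**Figure D1:**
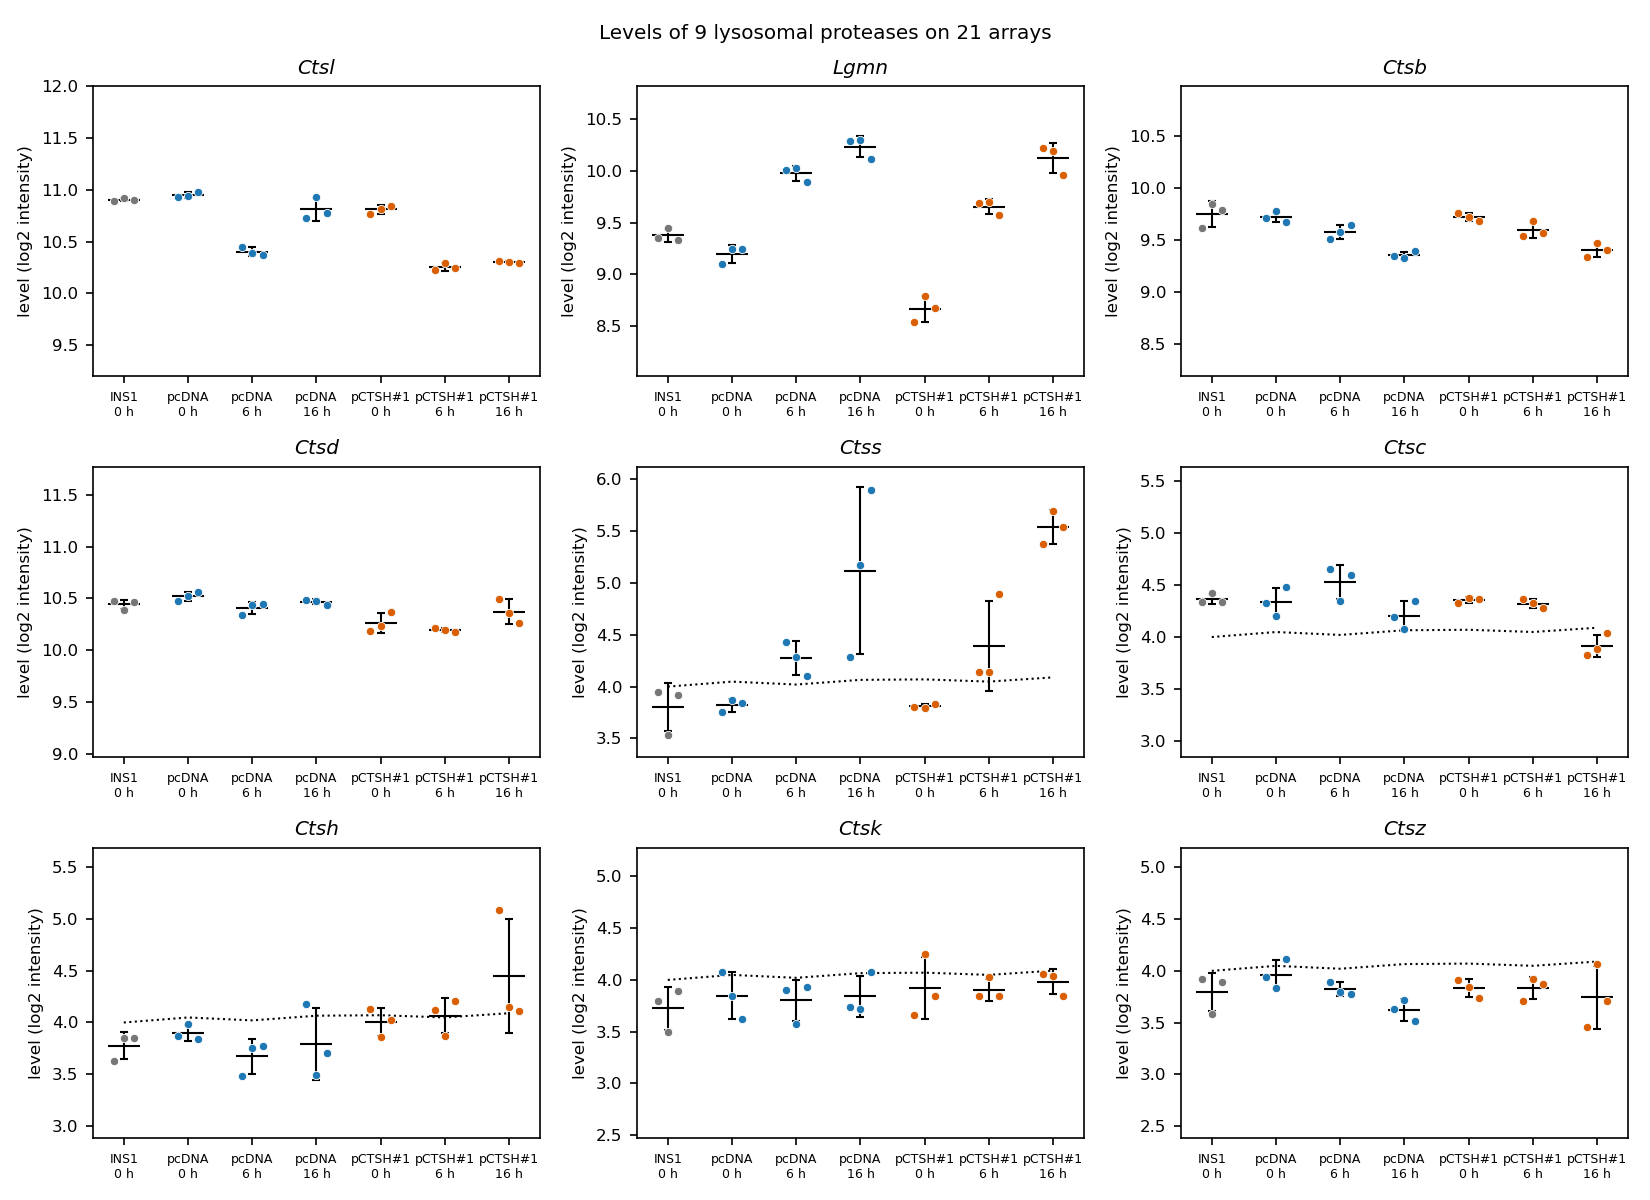
Level of each of the 9 lysosomal proteases (log2 intensity) in the 7 groups. Points are single arrays, bars are the mean ± SD (n = 3), the dotted line is the mean background where it falls within the panel, and every panel spans the same log2 range around its own centre. Lgmn climbed from 0 to 16 h in both lines, Ctss left the background, and Ctsl dropped at 6 h in both lines; at 16 h its arrays lay at 10.73 to 10.93 in pcDNA and 10.29 to 10.31 in pCTSH#1.

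Under cytokines the members moved in both directions. Legumain rose and cathepsin L fell within 6 h in both lines, and by 16 h cathepsin S had risen and cathepsin B had fallen in both. After 6 h in pcDNA, 2 of 9 members passed the test (limma, adjusted p below 0.05), 1 higher and 1 lower, while of all probe sets 30.6% passed, 12.1% higher and 18.5% lower. After 16 h in pcDNA 4 members passed, 2 higher and 2 lower, beside 46.4% of all probe sets, 21.3% higher and 25.1% lower. The lower members included Ctsz, which was measured in neither group. In pCTSH#1 2 members passed at 6 h, 1 higher and 1 lower, beside 26.8% of all probe sets, 10.7% higher and 16% lower. At 16 h in pCTSH#1 5 members passed, 2 higher and 3 lower, beside 46.4% of all probe sets, 20.8% higher and 25.6% lower.

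From 6 to 16 h 5 members passed in pcDNA, beside 42.2% of all probe sets, and 4 passed in pCTSH#1, beside 41.3%. The pcDNA count was 1 when only the arrays compared were fitted. It was 2 without pcDNA replicate 2 at 16 h or replicate 3 at 6 h, and 3 without replicate 1 at 16 h. The shares of members that passed were thus near those of the whole array, and the results below concern single genes. The median change of the 9 members was -0.11 at 6 h and -0.11 at 16 h in pcDNA, where the medians of all probe sets were -0.04 and 0.00. In pCTSH#1 the members' medians were -0.01 and 0.06, where those of all probe sets were -0.04 and -0.00. The pcDNA median at 16 h was the value of Ctsh, and both pCTSH#1 medians were values of Ctsk. These genes were measured in no group, so these medians do not describe the measured members. Comparisons with 0 h in a line share the 0 h arrays. Centring each array on its median moved the median change of all probe sets from 6 to 16 h in pCTSH#1 from 0.01 to 0.10.

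**Figure D2:**
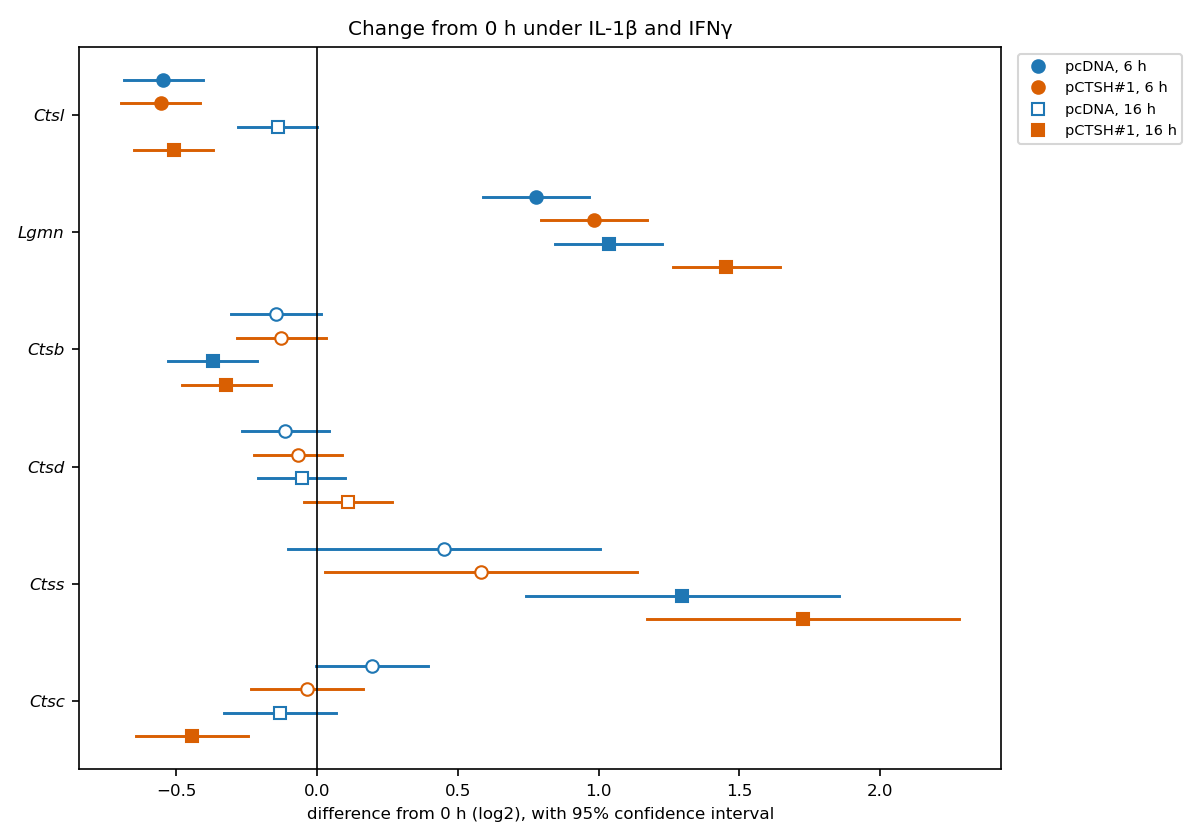
Change from 0 h in log2 units, with the 95% confidence interval of the limma model, for the 6 members measured in at least 1 group. Blue is pcDNA and orange pCTSH#1, circles are 6 h and squares 16 h, and filled symbols passed an adjusted p of 0.05. Lgmn lies above 0 and Ctsl at 6 h below 0 in both lines, and at 16 h the Ctsl changes of the lines lie apart, at -0.14 and -0.51. The values of Ctss against 0 h, and of Ctsc in pCTSH#1 at 16 h, are fitted differences to a group at background and are not sizes of change.

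Cathepsin H, an aminopeptidase and the protein overexpressed in pCTSH#1, was barely visible to its rat probe set. The labels do not give the species or the part of CTSH in the vector, so this probe set does not check the label. Its 3 levels in INS1 were 3.62, 3.85 and 3.85, and in pcDNA at 0 h 3.87, 3.99 and 3.84. In pCTSH#1 at 0 h they were 4.13, 3.86 and 4.02. The 0 h arrays of both lines overlapped, and those of pcDNA all lay at background while 2 of 3 in pCTSH#1 lay above it.

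With cytokines the Ctsh levels at 6 h were 3.48, 3.76 and 3.78 in pcDNA and 4.12, 3.87 and 4.21 in pCTSH#1. At 16 h they were 4.18, 3.50 and 3.71 in pcDNA and 5.08, 4.15 and 4.11 in pCTSH#1. One pCTSH#1 array at 16 h, replicate 1, lay well above all other arrays, and the rest of the Ctsh levels were close to background. The fitted difference between pCTSH#1 and pcDNA was 0.10 ± 0.20 (SE; 95% interval -0.32 to 0.52) at 0 h. It was 0.40 ± 0.20 at 6 h (adjusted p = 0.458) and 0.66 ± 0.20 at 16 h (adjusted p = 0.08). The 16 h difference passed without pcDNA replicate 1, at 0.85 (adjusted p = 0.0326), and without pCTSH#1 replicate 3, at 0.82 (adjusted p = 0.0424). Without pCTSH#1 replicate 1, the array that stood apart, it was 0.34 (adjusted p = 0.33). Within pCTSH#1 the 16 h value against 0 h was 0.45 ± 0.20 (adjusted p = 0.0783), and it passed without replicate 2 or 3 at 16 h (0.60 and 0.61, adjusted p = 0.0317 and 0.0235) and with arrays centred on their medians (0.53, adjusted p = 0.0434). Without replicate 1 at 16 h it was 0.13 (adjusted p = 0.574). These are fitted differences between groups at or near background, so no fold is given.

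Cathepsin L, a major lysosomal endopeptidase that can also act in the processing of prohormones, fell at 6 h in both lines and was still low at 16 h in pCTSH#1. In pcDNA its levels were 10.93, 10.94 and 10.98 at 0 h, 10.45, 10.39 and 10.37 at 6 h, and 10.73, 10.93 and 10.77 at 16 h. In pCTSH#1 they were 10.77, 10.81 and 10.85 at 0 h, 10.22, 10.30 and 10.25 at 6 h, and 10.31, 10.30 and 10.29 at 16 h. The 6 h arrays lay below the 0 h arrays without overlap in both lines. At 16 h the arrays of both lines also lay below their 0 h arrays without overlap, in pcDNA by a narrow margin. The pcDNA arrays were then nearer to their starting level than those of pCTSH#1. The difference between the lines in the 16 h response did not pass (limma, adjusted p = 0.152).

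The fall at 6 h was 0.54 ± 0.07 (SE) on the log2 scale in pcDNA, or 1.46-fold (adjusted p = 2.02e-06). In pCTSH#1 Ctsl fell by 0.55 ± 0.07, or 1.47-fold (adjusted p = 2.00e-06). From 6 to 16 h Ctsl rose by 0.41 ± 0.07 in pcDNA (adjusted p = 4.21e-05), and the change in pCTSH#1 was 0.05 ± 0.07 (95% interval -0.09 to 0.19, adjusted p = 0.651). Against 0 h the 16 h value was -0.14 ± 0.07 in pcDNA (adjusted p = 0.101) and -0.51 ± 0.07 in pCTSH#1 (adjusted p = 2.04e-06). Without pcDNA replicate 2 at 16 h the pcDNA value passed, at -0.20 (adjusted p = 0.0248).

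The untransfected INS1 arrays read 10.89, 10.92 and 10.90 for Ctsl. In the order of group means pcDNA at 0 h came first, then INS1, pCTSH#1 at 0 h, pcDNA at 16 h, pcDNA at 6 h, pCTSH#1 at 16 h and pCTSH#1 at 6 h. Neighbours in this order overlapped only between pCTSH#1 at 0 h and pcDNA at 16 h and between the 16 and 6 h groups of pCTSH#1.

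Legumain, the asparaginyl endopeptidase, rose at both times in both lines and was lower in pCTSH#1 before treatment. Its levels were 9.35, 9.45 and 9.33 in INS1, 9.10, 9.24 and 9.25 in pcDNA at 0 h, and 8.54, 8.79 and 8.67 in pCTSH#1 at 0 h. At 6 h they were 10.01, 10.02 and 9.89 in pcDNA and 9.69, 9.70 and 9.57 in pCTSH#1. At 16 h they were 10.29, 10.29 and 10.11 in pcDNA and 10.22, 10.19 and 9.96 in pCTSH#1. No array of either line at 6 or 16 h overlapped with the untreated arrays of that line, and the lines overlapped with each other only at 16 h.

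In pcDNA Lgmn rose by 0.78 ± 0.09 (SE), or 1.72-fold, at 6 h (adjusted p = 9.13e-07) and by 1.04 ± 0.09, or 2.05-fold, at 16 h (adjusted p = 5.96e-09). In pCTSH#1 it rose by 0.98 ± 0.09, or 1.98-fold, at 6 h (adjusted p = 4.32e-08) and by 1.45 ± 0.09, or 2.74-fold, at 16 h (adjusted p = 3.99e-11). The further rise from 6 to 16 h was 0.47 ± 0.09 in pCTSH#1 (adjusted p = 2.22e-04) and 0.26 ± 0.09 in pcDNA (adjusted p = 0.0263). The latter did not pass without pcDNA replicate 3 at 6 h (adjusted p = 0.108) or without pcDNA replicate 1 or 2 at 16 h (adjusted p = 0.0915 and 0.0910).

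A second Lgmn probe set lay at background in all 7 groups, so the Lgmn results rest on 1 probe set. Averaging both probe sets lowered the rises at 16 h to 0.56 in pcDNA and 0.87 in pCTSH#1, which still passed, and ended the call from 6 to 16 h in pcDNA (0.09, adjusted p = 0.316).

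Cathepsin S, an endopeptidase that remains active at neutral pH and is typical of antigen-presenting cells, lay at background on 8 of 9 arrays without cytokines, the exception being 1 INS1 array, and above it on all 12 arrays with them. Its levels were 3.95, 3.54 and 3.92 in INS1, 3.75, 3.87 and 3.84 in pcDNA at 0 h, and 3.81, 3.80 and 3.83 in pCTSH#1 at 0 h. At 6 h they were 4.43, 4.29 and 4.10 in pcDNA and 4.14, 4.14 and 4.89 in pCTSH#1. At 16 h they were 4.29, 5.17 and 5.90 in pcDNA and 5.37, 5.70 and 5.54 in pCTSH#1. All 12 arrays with cytokines lay above all 9 arrays without, the pcDNA arrays at 16 h were far apart (SD 0.81), and those of pCTSH#1 were close together (SD 0.16).

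Compared with 0 h, Ctss at 16 h was higher by at least 2.10-fold in pcDNA (fitted difference 1.30 ± 0.26, adjusted p = 3.41e-04) and by at least 2.77-fold in pCTSH#1 (1.73 ± 0.26, adjusted p = 1.42e-05). These bounds set the 16 h mean against the background level, since all 3 arrays of each line at 0 h lay at or below it. At 6 h the bounds were 1.17-fold in pcDNA and 1.25-fold in pCTSH#1, and the fitted differences did not pass (0.45 ± 0.26, adjusted p = 0.236, and 0.58 ± 0.26, adjusted p = 0.123). Fitted on the 6 arrays compared alone, both passed, with adjusted p of 0.00898 and 0.0492.

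From 6 to 16 h Ctss rose by 1.14 ± 0.26 in pCTSH#1 (adjusted p = 0.00138) and by 0.85 ± 0.26 in pcDNA (adjusted p = 0.0135). The pcDNA value was 0.46 (adjusted p = 0.121) without replicate 3 at 16 h and 0.76 (adjusted p = 0.0542) without replicate 3 at 6 h, so this call rested on single arrays.

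Ctss is also a gene of macrophages, and 17 macrophage and other leukocyte markers had a probe set. Between 3 and 5 of them lay above background on all 3 arrays of a group, and 10 to 12 lay at background on all 3. Itgam, Adgre1, Csf1r, Cd14 and Aif1 lay at background on every array and Ptprc on all but 1. The summed level of the list was 8.43 to 8.51 (log2) in pcDNA at 0 h and 8.34 to 8.48 at 16 h, and in pCTSH#1 it was 8.26 to 8.40 at 0 h and 8.31 to 8.34 at 16 h. Mean Cd68, which encodes a lysosomal membrane protein, was 4.69 at 0 h and 5.52 at 16 h in pcDNA, and 4.65 and 5.89 in pCTSH#1. Mean C1qa was 6.97 and 6.25 in pcDNA, and 6.36 and 5.50 in pCTSH#1. Mean Lyz2, a lysozyme gene, was 4.14 and 4.63 in pcDNA, and 4.26 and 4.86 in pCTSH#1, and it was above background on 20 of the 21 arrays. The sum gives most weight to the brighter markers, C1qa among them, so it need not follow Cd68 or Lyz2. The part of these markers in the Ctss result was not tested.

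Of the MHC class II genes and their regulator Ciita, all 7 with a probe set rose at 6 and at 16 h in both lines. Of all probe sets 12.1% and 21.3% were higher at these times in pcDNA, and 10.7% and 20.8% in pCTSH#1. At 16 h Ciita alone of the 7 passed between pCTSH#1 and pcDNA, at 0.70 ± 0.11 (limma, adjusted p = 6.32e-04), beside 3.8% of all probe sets. Alone of the 7, its response at 16 h also passed as different between the lines, beside 0.213% of all probe sets. Cd74, the invariant chain, was higher at 16 h by at least 195-fold in pcDNA and at least 250-fold in pCTSH#1.

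Cathepsin B, an endopeptidase and peptidyl-dipeptidase that can activate trypsinogen in the exocrine pancreas, fell in both lines by 16 h. Its levels in pcDNA were 9.72, 9.78 and 9.68 at 0 h, 9.51, 9.58 and 9.65 at 6 h, and 9.34, 9.32 and 9.39 at 16 h. In pCTSH#1 they were 9.76, 9.73 and 9.69 at 0 h, 9.54, 9.68 and 9.57 at 6 h, and 9.34, 9.47 and 9.40 at 16 h. The 3 times did not overlap within either line, and the lines overlapped with each other at every time. INS1, at 9.62, 9.85 and 9.79, spanned both lines at 0 h.

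Against 0 h Ctsb fell by 0.37 ± 0.08 (SE), or 1.29-fold, at 16 h in pcDNA (adjusted p = 3.47e-04), and by 0.32 ± 0.08, or 1.25-fold, in pCTSH#1 (adjusted p = 0.00133). The values at 6 h were -0.15 ± 0.08 in pcDNA (adjusted p = 0.173) and -0.13 ± 0.08 in pCTSH#1 (adjusted p = 0.268). From 6 to 16 h Ctsb fell by 0.22 in pcDNA (adjusted p = 0.0211) and by 0.20 in pCTSH#1 (adjusted p = 0.0445). With arrays centred on their medians these 6-to-16 h changes were -0.15 and -0.10 and neither passed (adjusted p = 0.189 and 0.394). The pcDNA call also ended without replicate 1 or 2 at 16 h or replicate 3 at 6 h, and the pCTSH#1 call without replicate 1 or 3 at 16 h or replicate 2 or 3 at 6 h.

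Cathepsin C, or dipeptidyl peptidase 1, which activates the serine proteases of granules in immune cells, was dim throughout and dropped to background at 16 h in pCTSH#1. Its levels in pCTSH#1 were 4.33, 4.38 and 4.37 at 0 h, 4.36, 4.33 and 4.28 at 6 h, and 3.83, 3.88 and 4.03 at 16 h. In pcDNA they were 4.33, 4.20 and 4.48 at 0 h, 4.65, 4.35 and 4.60 at 6 h, and 4.19, 4.07 and 4.35 at 16 h. The 16 h arrays of pCTSH#1 lay below every other array, while the pcDNA arrays overlapped between all times. The 3 INS1 arrays, at 4.33, 4.43 and 4.34, lay within the range of pcDNA.

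At 16 h Ctsc was at least 1.21-fold lower than at 0 h in pCTSH#1 (fitted difference -0.44 ± 0.09, adjusted p = 5.54e-04). The 16 h value in pcDNA was -0.13 ± 0.09 (adjusted p = 0.295). From 6 to 16 h Ctsc was at least 1.18-fold lower in pCTSH#1 (fitted difference -0.41, adjusted p = 0.00147) and fell by 0.33 in pcDNA (adjusted p = 0.00802). The pcDNA call ended without replicate 1 at 6 h (adjusted p = 0.0513) or replicate 2 at 16 h (adjusted p = 0.0529). On a second, dimmer Ctsc probe set the changes to 16 h in pcDNA were -0.52 against 0 h (adjusted p = 0.0112) and -0.58 against 6 h (adjusted p = 0.0061), with all 3 arrays at 16 h at background, so the probe sets differ on whether the pcDNA change from 0 h passed. In pCTSH#1 this probe set did not pass, at -0.33 against 0 h (adjusted p = 0.11) and -0.33 against 6 h (adjusted p = 0.118), so the probe sets differ there too.

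Cathepsin D, the main aspartic protease of the lysosome, did not pass the test in any comparison. In pcDNA its levels were 10.47, 10.53 and 10.56 at 0 h, 10.34, 10.44 and 10.45 at 6 h, and 10.48, 10.48 and 10.44 at 16 h. In pCTSH#1 they were 10.18, 10.23 and 10.37 at 0 h, 10.22, 10.20 and 10.17 at 6 h, and 10.49, 10.36 and 10.26 at 16 h. The lines did not overlap at 0 or 6 h, with pCTSH#1 the lower, and overlapped at 16 h. INS1, at 10.47, 10.39 and 10.46, lay above pCTSH#1 at 0 h without overlap.

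For Ctsd the difference between pCTSH#1 and pcDNA was -0.26 ± 0.07 at 0 h (95% interval -0.41 to -0.10, adjusted p = 0.0994) and -0.21 ± 0.07 at 6 h (adjusted p = 0.176). The 0 h difference passed with eBayes trend and robust settings (adjusted p = 0.0137), among the brighter probe sets alone (adjusted p = 0.0294), with array weights (adjusted p just under the threshold) and over gene means (adjusted p = 0.0416). The change from 0 to 16 h was -0.05 ± 0.07 in pcDNA and 0.11 ± 0.07 in pCTSH#1 (adjusted p = 0.607 and 0.255). After cyclic loess the pCTSH#1 value was 0.21 and passed (adjusted p = 0.0223). From 6 to 16 h in pCTSH#1 the value was 0.18 ± 0.07 (adjusted p = 0.0652), and it passed under centring (0.27, adjusted p = 0.0113), cyclic loess (0.22, adjusted p = 0.0196) and without replicate 3 at 16 h (0.23, adjusted p = 0.025).

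Cathepsins K and Z stayed near background in every group. Cathepsin K, the collagen-degrading protease of osteoclasts, read 3.49 to 4.25 over the 21 arrays, and cathepsin Z, a carboxypeptidase, read 3.46 to 4.11. For Ctsz the fitted difference between 16 and 0 h in pcDNA, -0.34 ± 0.13, passed (adjusted p = 0.0335), but 0 of 3 arrays at 16 h and 1 of 3 at 0 h lay above background, so no fold is given. The call ended with arrays centred on their medians (-0.25, adjusted p = 0.098) and without replicate 1 or 3 of either group (adjusted p = 0.0596 to 0.145).

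Ctsk and Ctss are close on chromosome 2, with 1 protein-coding locus, LOC134485802, between them in the RefSeq table. Ctsk was measured in no group and did not pass in any comparison, while Ctss rose by 16 h in both lines. A change of Ctsk below background could not be seen.

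Before treatment the lines differed in legumain. Against pcDNA at 0 h 1 of 9 members passed in pCTSH#1, beside 1.87% of all probe sets: Lgmn was lower in pCTSH#1, at -0.53 ± 0.09 on the log2 scale, or 1.44-fold (adjusted p = 0.00242). Against INS1 at 0 h 1 member passed in pCTSH#1, beside 2.57% of all probe sets, again Lgmn, at -0.71 ± 0.09 or 1.63-fold (adjusted p = 9.65e-05). Between pcDNA and INS1 0 members passed in limma (0 at an unadjusted p below 0.05), beside 0.00966% of all probe sets, and the Lgmn difference was -0.18 ± 0.09 (adjusted p = 1.00). Fitted on the 6 arrays of pCTSH#1 and pcDNA alone, the Lgmn difference at 0 h did not pass (adjusted p = 0.0521).

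With cytokines the line difference in legumain no longer passed, and one in cathepsin L passed at 16 h. At 6 h 0 members passed between pCTSH#1 and pcDNA, beside 2.86% of all probe sets. At an unadjusted p below 0.05 in limma there were 4, a threshold for which no share of all probe sets is given here. Lgmn was nearest to passing, at -0.32 ± 0.09 (adjusted p = 0.0647). It passed with the replicate number as a block (adjusted p = 0.036), among the brighter probe sets alone (adjusted p = 0.0251), with trend and robust settings (adjusted p = 0.0144) and with array weights (adjusted p = 0.0123). At 16 h 1 member passed, beside 3.8% of all probe sets: Ctsl was lower in pCTSH#1, at -0.51 ± 0.07, or 1.42-fold (adjusted p = 1.27e-04). Fitted on the 6 arrays compared alone it did not pass (adjusted p = 0.0683). The Lgmn difference at 16 h was -0.11 ± 0.09 (95% interval -0.30 to 0.08).

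**Figure D3:**
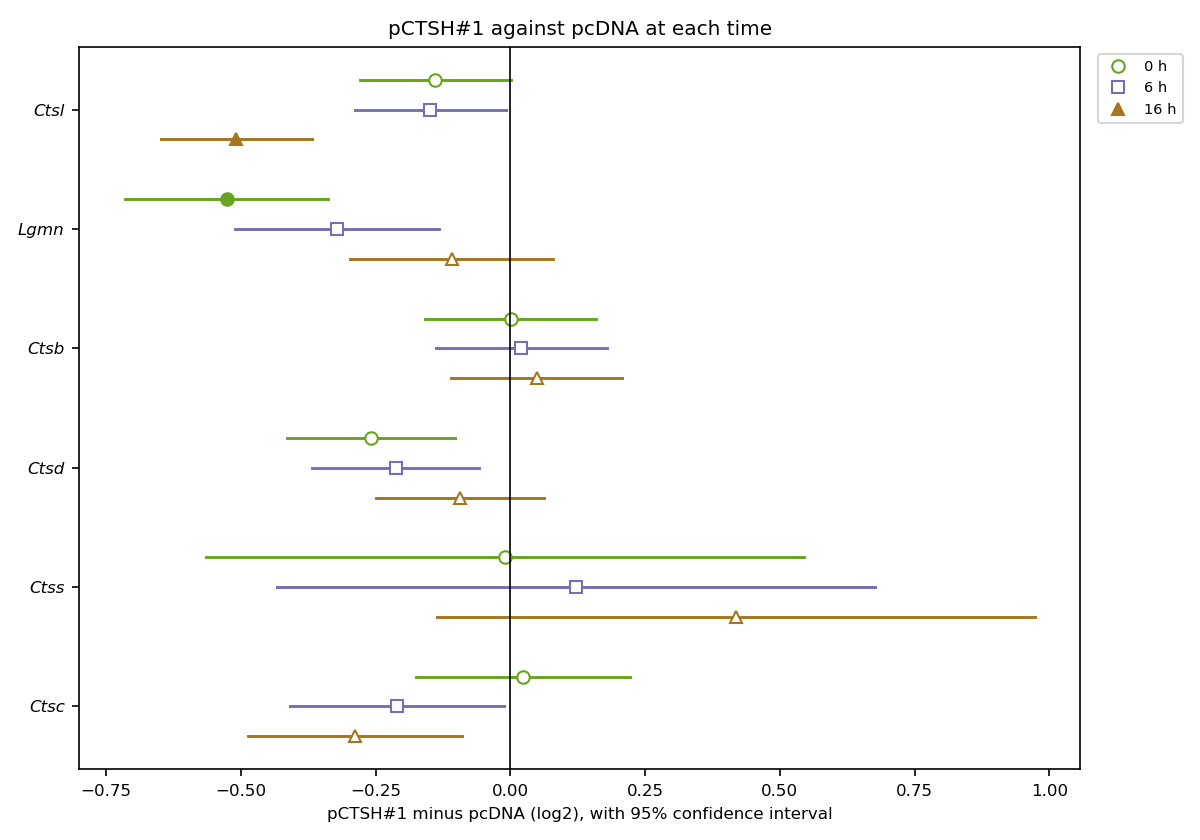
Difference between pCTSH#1 and pcDNA in log2 units at 0, 6 and 16 h (circles, squares and triangles), with the 95% confidence interval of the limma model. Filled symbols passed an adjusted p of 0.05. For Lgmn the points run from -0.53 at 0 h to -0.11 at 16 h and for Ctsl from -0.14 to -0.51; neither shift passed the test of the difference of responses.

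Whether the responses themselves differed between the lines was tested as a difference of differences. At 6 h 0 members passed in limma, beside 0.103% of all probe sets, and at 16 h 0 passed, beside 0.213%. For the change from 6 to 16 h 0 passed, beside 0.267%. At an unadjusted p below 0.05 there were 0, 3 and 1 members. The shares above are for adjusted p, and no share of all probe sets at the unadjusted threshold is given here. The member with the lowest p at 16 h was Ctsl, whose response in pCTSH#1 minus that in pcDNA was -0.37 ± 0.09 (95% interval -0.57 to -0.17, unadjusted p = 9.84e-04, adjusted p = 0.152). Its 6-to-16 h change differed by -0.36 ± 0.09 (adjusted p = 0.128). Both Ctsl differences passed among the brighter probe sets alone (adjusted p = 0.0427 and 0.0343) and with trend and robust settings (adjusted p = 0.0166 and 0.0172). For Lgmn the response at 16 h differed by 0.42 ± 0.13 (95% interval 0.15 to 0.68, adjusted p = 0.288), and for Ctss by 0.43 ± 0.37 (95% interval -0.36 to 1.21). The medians of the members' differences were 0.05 at 6 h and 0.17 at 16 h, where those of all probe sets were 0.00 and -0.00.

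The genes whose levels ran most nearly parallel to each measured member over the 21 arrays were found by Pearson's r. This r is a description over arrays that share groups and treatment. Ctsl was most like Wnt4, a secreted signalling protein (r = 0.953), Amer2 (0.953) and the peptidase-like Prepl (0.938). Mean Wnt4 was 10.68 at 0 h, 9.40 at 6 h and 10.19 at 16 h in pcDNA, and 10.54, 9.14 and 9.47 in pCTSH#1. Lgmn was most like Naa25 (0.960), Laptm4a, a lysosomal membrane protein (0.958), and Fam110b (0.958).

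Ctsb was most like Psmd2, a subunit of the proteasome (r = 0.959), the tetraspanin Cd151 (0.957) and the nuclear membrane gene Nrm (0.954). Ctss was most like Hsd17b11 (0.931), the ectonucleotidase Entpd2 (0.929) and the chemokine Ccl5 (0.924), and mean Ccl5 was 3.91, 5.05 and 6.54 at 0, 6 and 16 h in pcDNA. Ctsd was most like Gaa, which encodes the lysosomal acid α-glucosidase (0.893), the calcium channel Cacna1h (0.889) and the neuropeptide precursor Tac1 (0.855). Ctsc was most like Nrep (0.902), Eola2 (0.859) and the channel Trpc1 (0.841).

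Transcripts for other proteins of the lysosome changed in different directions by 16 h. Of all probe sets, 21.3% were higher and 25.1% lower at 16 h than at 0 h in pcDNA, and 20.8% and 25.6% in pCTSH#1. The counts below stand beside these shares with no test of the lists. They take in every listed gene with a probe set, also genes that may lie at background. Of 24 lysosomal hydrolases of sugars, lipids and sulfates with a probe set, 17 fell and 2 rose in pcDNA. In pCTSH#1 16 fell and 2 rose, and the medians of the lines were -0.51 and -0.49. Galc, which degrades galactosylceramide, fell by 1.47 ± 0.14 (SE) in pcDNA and 1.38 ± 0.14 in pCTSH#1, and Ppt1, a palmitoyl thioesterase, fell by 1.27 and 1.07. Manba, the β-mannosidase, went the other way and rose by 1.64 ± 0.08 and 1.20 ± 0.08. Lysosomal membrane proteins mostly rose: 8 of 13 rose and 3 fell in each line, among them the cystine transporter Ctns at 1.77 ± 0.13 in pcDNA and 1.58 ± 0.13 in pCTSH#1.

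Among 13 other lysosomal peptidases with a probe set, at background or not, 3 rose and 0 fell at 16 h in each line. They were the serine carboxypeptidases Scpep1 (0.84 ± 0.08 in pcDNA and 0.80 ± 0.08 in pCTSH#1) and Ctsa (0.51 and 0.50), and the dipeptidyl peptidase Dpp7 (0.55 and 0.37). At 6 h, when 18.5% of all probe sets were lower in pcDNA and 16% in pCTSH#1, 3 of the 13 had fallen in each line, Scpep1 (-0.42 in pcDNA and -0.26 in pCTSH#1), Tpp1 (-0.35 and -0.33) and Ctsf (-0.29 and -0.24). Scpep1 thus fell and later exceeded its starting level, where Ctsl in pcDNA fell and returned toward it. Of 7 cystatins, protein inhibitors of cysteine proteases of the papain family, 1 rose and 2 fell at 16 h in each line. Cstb rose by 0.38 ± 0.07 in pcDNA and 0.26 ± 0.07 in pCTSH#1, and Cst6, an inhibitor of legumain and cathepsin L, fell by 0.76 ± 0.07 and 0.54 ± 0.07.

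Of 14 genes that tag and sort lysosomal enzymes, 5 rose and 4 fell at 16 h in pcDNA, and 3 rose and 4 fell in pCTSH#1. The sorting receptor Sort1 fell by 2.19 ± 0.17 and 2.42 ± 0.17, while the retromer subunit Vps26a rose by 1.16 ± 0.10 and 1.12 ± 0.10. Of 17 genes of the vacuolar proton pump, 3 rose and 6 fell in pcDNA and 4 rose and 7 fell in pCTSH#1, with Atp6v1a lower, at -1.01 ± 0.09 and -1.08 ± 0.09. Of 10 MiT factors and their regulators, 6 rose and 2 fell in each line. The regulators Rragd (2.52 ± 0.13 in pcDNA and 2.56 ± 0.13 in pCTSH#1) and Flcn (1.71 ± 0.08 and 1.54 ± 0.08) rose most. At 6 h Flcn had fallen by 0.46 in pcDNA and 0.88 in pCTSH#1.

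**Figure D4:**
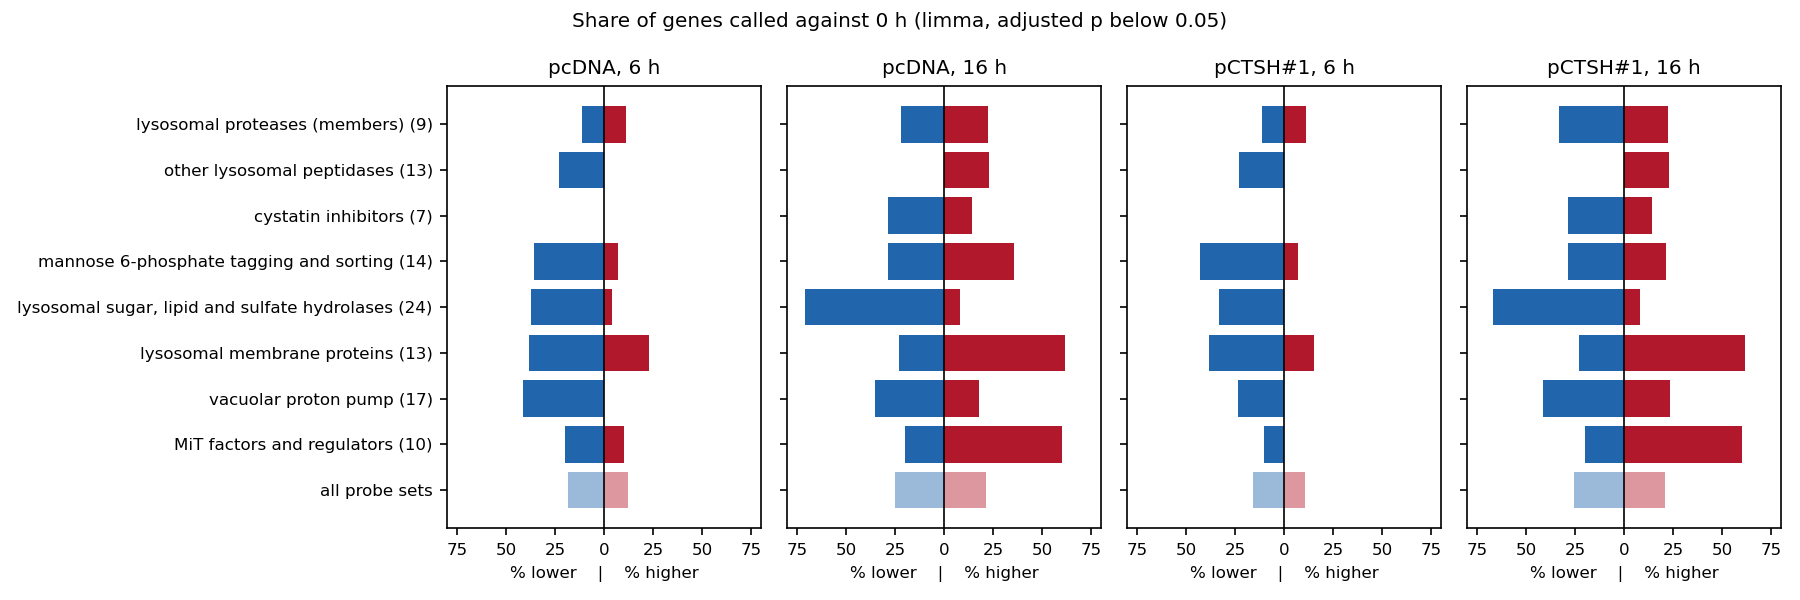
Share of each group of lysosomal genes that passed the test (limma, adjusted p below 0.05) as higher (red) or lower (blue) than at 0 h, for both lines and both times. The number of genes with a probe set, at background or not, is in parentheses, and all probe sets are in pale bars. At 16 h the hydrolases lie mostly to the lower side and the membrane proteins and MiT factors mostly to the higher side in both lines.

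Between the lines 0, 3 and 2 of the 98 genes in the 7 lysosomal lists passed in limma at 0, 6 and 16 h, beside 1.87%, 2.86% and 3.8% of all probe sets. At an unadjusted p below 0.05 in limma there were 13, 12 and 13 of the 98. No share of all probe sets at that threshold is given here, so these counts show no excess. At 6 h Gga2 and Npc2 were higher in pCTSH#1 (0.31 and 0.38, adjusted p = 0.0155 and 0.0164) and Flcn was lower (-0.41, adjusted p = 0.0077). At 16 h Cst6 was higher (0.28, adjusted p = 0.0216) and Cln3 was lower (-0.60, adjusted p = 0.0153).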

How the data were processed

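RNA of 21 samples (100 ng each, RNA integrity number above 8.5 per the labels) was measured on rat Affymetrix arrays, 1 per sample. The authors deposited log2 probe set intensities made with RMA (per the submitters' processing notes, which list RMA, affy and limma and give no versions), and these values were used unchanged. Of 31137 probe sets, 95 controls were left out, and all 31042 others entered the tests, dim ones included. Symbols came from the platform annotation. It gave 1 symbol for 19063 probe sets, several for 572 and did not list 11407. All 9 members matched RefSeq by gene ID.

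Tests used limma 3.58.1 in R 4.3.3 (lmFit and eBayes at defaults). All 21 arrays and 7 group means were in 1 model, two-sided, with Benjamini-Hochberg adjustment over 31042 probe sets within a comparison and a threshold of 0.05. The number of arrays limits the precision. A value after ± is a standard error unless SD is written. Where 1 group lay wholly at background, the fold is a lower bound against the background level. The method was tested on simulated data.

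The members and gene lists were chosen with earlier results of these data known. Named genes were the 9 members, up to 4 genes per list with the largest change among those that passed without overlap between arrays, the 3 genes most like each measured member, and Cd74. Cd68, Lyz2 and C1qa among the markers and some genes given for both lines or times were named after their values were seen. The alternatives tried were centring, cyclic loess, a replicate block, only the brighter probe sets (mean above the median), trend and robust eBayes, array weights, fits on only the arrays compared, gene means over probe sets, another background level and leaving out each array. The planned pseudocount was not needed, since values were on a log scale. Plots used matplotlib 3.10.9. The result for 1 of the promoter motifs is not reported here.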

Additional observations from a re-analysis of the deposited data

How the results depend on the processing

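No direction of a member that passed reversed under any alternative run. Of the 25 member results that passed, 18 of 150 values with 1 array left out and 13 of 192 under the other settings no longer passed. Of the 101 that did not pass, 8 of 768 and 26 of 746 values did. Among these, 74 and 17 values changed sign without passing. The numbers of members that passed moved as follows. Among the brighter probe sets alone, which kept 4 members, they were 3 for pcDNA from 6 to 16 h (5 as reported), 3 for pCTSH#1 from 0 to 16 h (5), 2 and 1 between the lines at 0 and 6 h (1 and 0), and 1 and 1 for the differences of responses at 16 h and of 6-to-16 h changes (0 and 0). With trend and robust settings they were 2, 2 and 2 between the lines at 0, 6 and 16 h (1, 0 and 1), and 1 and 1 for the same differences (0 and 0). Array weights gave 2 and 1 between the lines at 0 and 6 h, and gene means gave 2 at 0 h. Fits on only the arrays compared gave 1 for pcDNA from 6 to 16 h and 0 and 0 between the lines at 0 and 16 h. With 1 array left out the count was 2 to 5 for pcDNA from 6 to 16 h and 1 to 2 between the lines at 16 h.

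Residuals of equally numbered arrays all correlated above 0.1 in 2 of 21 pairs of groups (r from -0.0903 to 0.244). Both of these pairs were of untreated groups, pcDNA set against either INS1 or pCTSH#1, and the replicate block left their member counts at 0 and 1. In the others the numbers were not taken as pairs. The replicate block gave 1 member between the lines at 6 h in place of 0 and changed no other count by over 1.5 times.

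Over all probe sets, the counts between the lines were 582, 887 and 1181 at 0, 6 and 16 h and ranged over the alternatives from 284 to 739, 531 to 1737 and 193 to 1528. Those for the differences of responses were 32 and 66 at 6 and 16 h and 83 for the 6-to-16 h changes, with ranges of 17 to 65, 30 to 120 and 41 to 212. Against INS1 at 0 h they were 797 (366 to 937) for pCTSH#1 and 3 (0 to 5) for pcDNA. Counts over gene means are of genes and were not set beside these. Signal over background limits Ctsh, Ctsk, Ctsz, Ctsc and Ctss.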
